A study of Drosophila melanogaster with 3 samples.

Results

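Cuticle protein genes were described in whole-head RNA of adult flies (Drosophila melanogaster). They were taken as all genes whose single symbol in the platform's gene table was Cpr followed by a digit, or began with Lcp or Ccp84A, with the probe set of the highest mean log2 signal standing for each gene. The rule found 76 of the 11981 named genes on the array, of which 66 were named Cpr, 7 Lcp and 3 Ccp84A. A further 18 genes of the RefSeq table whose symbols follow the same pattern are not among the singly named probe sets and were not analysed here.

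The study measured 3 groups on 1 array each. PKA-DN heads carried p247-Gal4, tub-gal80[ts] and UAS-PKA-DN, which encodes a dominant-negative protein kinase A (PKA). PKA-CA heads carried the same driver and repressor with UAS-PKA-CA, a constitutively active form. Control heads carried p247-Gal4 and tub-gal80[ts] over a wild-type chromosome, without a PKA transgene. All flies were raised at 18 °C until 3 days of adult age and then held at 32 °C for 12 to 16 h, which inactivates the temperature-sensitive Gal80 repressor and releases Gal4. Ages at collection were 4 to 6 days. The driver acts in the mushroom bodies, the olfactory memory centre of the brain, while the RNA came from every tissue of the head. The submitted text names the effects of the transgenes on PKA activity in the order opposite to their names, and no activity was measured. With 1 array per group no value has a replicate error and nothing could be tested, so folds are described beside the same folds over all genes.

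The insect cuticle is an extracellular layer of chitin fibres embedded in protein, secreted by the epidermis below it. Most genes named Cpr encode secreted proteins with the Rebers and Riddiford consensus, a stretch that binds chitin, and the symbols give the polytene chromosome band of the gene. Lcp stands for larval cuticle protein and Ccp84A for a cluster of cuticle genes, and many members sit in tandem clusters and are made in bursts at each moult. The corneal lens of the compound eye is a cuticle too, and Cpr72Ec and Cpr66D are among its proteins in Drosophila.

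Most cuticle protein genes could not be told from background in these heads. A gene was called detected where its signal exceeded the highest Drosophila negative-control probe set, which was 77.8 on the PKA-DN array, 70.9 on the PKA-CA array and 77.0 on the control array. Of the 76 genes, 17 (22.4%) were detected on all 3 arrays, against 62.2% of all 11981 named genes. Another 10 were detected on 1 or 2 arrays, and 49 on none. On single arrays 24 members lay above the limit in PKA-DN heads, 22 in PKA-CA heads and 20 in control heads. The 49 undetected genes had median signals of 13.1 in PKA-DN, 16.7 in PKA-CA and 21.1 in control heads, where the negative controls themselves had medians of 10.5, 5.43 and 8.76 on the same arrays. A signal below the limit says that the transcript was not detectable at this sensitivity, and not that it was absent.

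**Figure D1:**
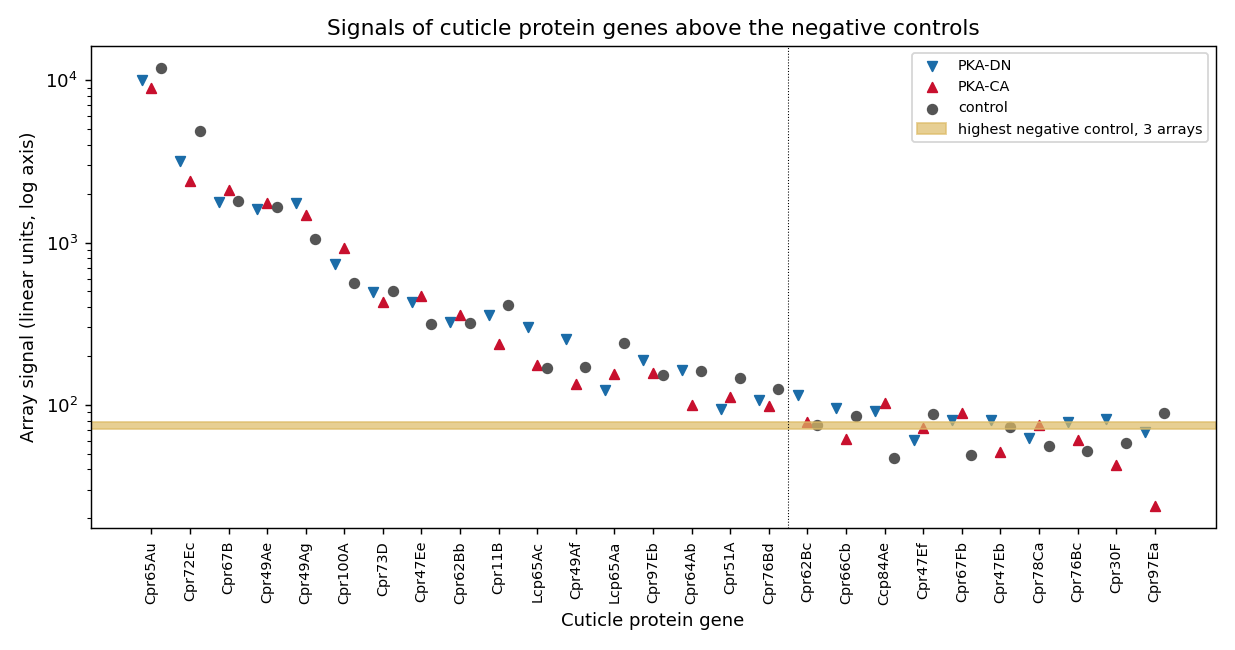
Signal of each cuticle protein gene that exceeded the negative controls on at least 1 array (y axis, linear array units on a log axis; x axis, genes by falling mean log2 signal), with 1 point for each of the PKA-DN, PKA-CA and control arrays. The 17 genes left of the dotted line lie above the band of the highest negative controls (70.9 to 77.8) on all 3 arrays. The 10 genes right of the line exceed the highest negative control of the same array on 1 or 2 arrays, some with points inside the band.

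Detection was spread over the gene clusters. In band 65A, the largest group with 10 measured members, Cpr65Au, Lcp65Ac and Lcp65Aa were detected on all 3 arrays and the other 7 on none. In band 49A, Cpr49Ae, Cpr49Af and Cpr49Ag were detected out of 8 measured members. These 3 are direct neighbours among the protein-coding genes of the RefSeq table, and no other detected members adjoin each other. In band 47E, Cpr47Ee was detected on all 3 arrays, Cpr47Ef and Cpr47Eb on some, and 4 members on none. Bands 64A, 72E, 62B and 76B each gave 1 detected gene, while no member of bands 65E, 67F, 78C, 50C or 84A was detected on all 3 arrays. By chromosome arm, 9 of 38 measured members on 3L, 5 of 21 on 2R, 2 of 8 on 3R, 1 of 4 on X and 0 of 5 on 2L were detected. By name, 15 of 66 Cpr genes, 2 of 7 Lcp genes and 0 of 3 Ccp84A genes were.

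**Figure D2:**
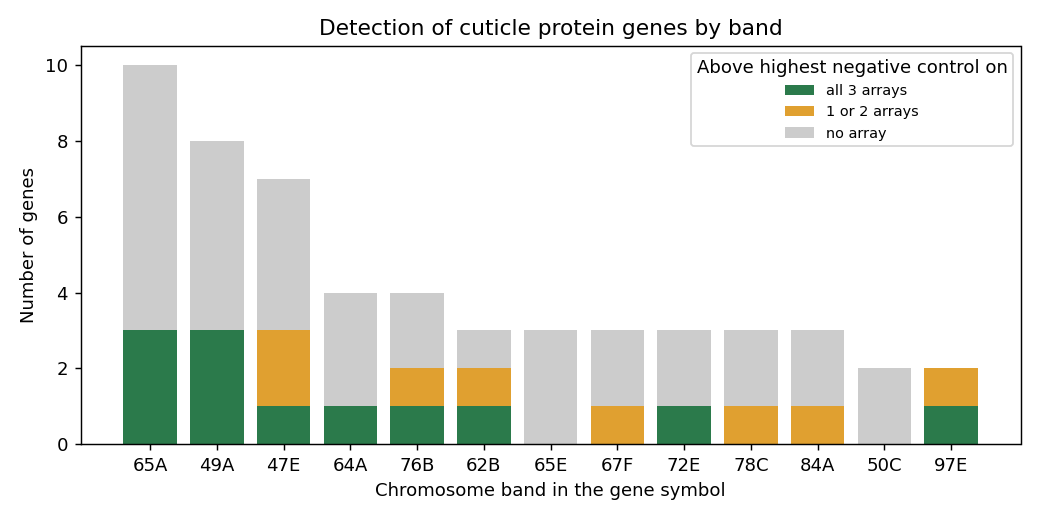
Number of cuticle protein genes (y axis) in each chromosome band with more than 1 measured member (x axis), split into genes above the highest negative control on all 3 arrays, on 1 or 2 arrays, and on none. Bands 65A and 49A hold 3 genes each that were detected on all 3 arrays, and bands 65E and 50C hold none detected on any array.

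The probe set with the highest signal was that of Cpr65Au (CG18778, arm 3L). Its signal was 9980.1 in PKA-DN, 9018 in PKA-CA and 11932 in control heads, which is 128, 127 and 155 times the highest negative control on these arrays. The log2 ratios over control were -0.26 in PKA-DN and -0.40 in PKA-CA, both under 1.5-fold. Signals of different probe sets depend on their probes as well as on the RNA, so their order is no order of transcript amounts.

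Cpr72Ec (CG4784, arm 3L), the corneal lens gene, was the only cuticle protein gene of the 17 that differed 2-fold in any comparison. Its signal was 3199.8 in PKA-DN, 2383 in PKA-CA and 4862 in control heads, so the PKA-CA array was the lowest and the control array the highest. The signal was 2.04-fold lower in PKA-CA than in control heads (log2 ratio -1.03; -0.92 with the arrays centred on their medians) and 1.52-fold lower in PKA-DN than in control heads (-0.60; -0.58, just under 1.5-fold, with the arrays centred). Between the PKA arrays, with PKA-CA over PKA-DN, the log2 ratio was -0.43. Both ratios over control share the control array. Among the 2526 detected genes with a mean signal over 1000, 0.119% were 2-fold or more lower in PKA-CA heads and 1.15% were 1.5-fold or more lower in PKA-DN heads.

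Other genes of the lens and eye were set beside Cpr72Ec. The lens gene retinin had signals of 20341 in PKA-DN, 17477 in PKA-CA and 23339 in control heads, with log2 ratios over control of -0.20 and -0.42. The arrays thus stood in the same order for both genes, with smaller steps for retinin. This order was not particular to lens genes. It was also that of Cpr65Au, Cpr73D, Cpr11B and Cpr76Bd, and of the fat body genes Yp1, Yp2, Yp3 and apolpp. The second lens gene of the Cpr family, Cpr66D, was not detected on any array, with signals of 9.80, 27.9 and 6.13 in PKA-DN, PKA-CA and control heads. Of 6 photoreceptor markers 4 were measured, and all 4 were detected. Their summed signal was 40205 in PKA-DN, 39666.5 in PKA-CA and 39273 in control heads, and their median log2 ratios over control were -0.03 and -0.04. These medians cover genes on both sides of 0. In PKA-DN and PKA-CA over control trpl had 0.33 and 0.21, chp 0.02 and -0.03, trp -0.09 and -0.05, and rdgA -0.45 and -0.16.

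Among the brighter genes, Cpr49Ag and Cpr100A were higher on both PKA arrays than on the control array. Cpr49Ag (CG8511, arm 2R) had signals of 1743 in PKA-DN, 1487 in PKA-CA and 1052 in control heads. It was 1.66-fold higher in PKA-DN than in control heads (log2 ratio 0.73), and its ratio in PKA-CA over control was 0.50 (0.61, past 1.5-fold, with the arrays centred). Cpr100A (CG12045, arm 3R) had signals of 739 in PKA-DN, 932 in PKA-CA and 562 in control heads. It was 1.66-fold higher in PKA-CA than in control heads (0.73) and had a ratio of 0.40 in PKA-DN over control. Cpr47Ee (CG13222, arm 2R) had 428 in PKA-DN, 466 in PKA-CA and 314 in control heads, with ratios over control of 0.44 and 0.57; the second was just under 1.5-fold and passed it with the arrays centred, at 0.68.

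Cpr11B (CG2555, arm X) was low on the PKA-CA array. Its signals were 359 in PKA-DN, 236 in PKA-CA and 410 in control heads. It was 1.74-fold lower in PKA-CA than in control heads (log2 ratio -0.80) and 1.52-fold lower than in PKA-DN heads (-0.61; -0.51 with the arrays centred), with a ratio of -0.19 in PKA-DN over control. Cpr64Ab (CG15007, arm 3L) had the same shape nearer the limit of detection, with 165 in PKA-DN, 99.6 in PKA-CA and 163 in control heads. Its ratios were -0.71 in PKA-CA over control, -0.72 in PKA-CA over PKA-DN and 0.02 in PKA-DN over control; with 64 added to each signal the first of these was -0.47 and the second -0.48, both under 1.5-fold.

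A pair of dim genes was high on the PKA-DN array. Lcp65Ac (CG6956, arm 3L) had signals of 299.5 in PKA-DN, 176 in PKA-CA and 169 in control heads, so the PKA-DN array stood apart from the other two. It was 1.77-fold higher in PKA-DN than in control heads (log2 ratio 0.82), and PKA-CA over PKA-DN gave -0.77. Cpr49Af (CG8510, arm 2R) had 254 in PKA-DN, 135 in PKA-CA and 170.5 in control heads. Its ratio in PKA-CA over PKA-DN was -0.91, 1.88-fold lower in PKA-CA heads. Over control it had 0.57 in PKA-DN, which passed 1.5-fold with the arrays centred at 0.60, and -0.34 in PKA-CA.

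The remaining genes past 1.5-fold were low on both PKA arrays. Lcp65Aa (CG7287, arm 3L) had signals of 123 in PKA-DN, 154 in PKA-CA and 239 in control heads. It was 1.95-fold lower in PKA-DN than in control heads (log2 ratio -0.96) and 1.55-fold lower in PKA-CA than in control heads (-0.63, or -0.52 with the arrays centred). Its second probe set was below the negative controls, with 19.9 in PKA-DN, 8.35 in PKA-CA and 15.6 in control heads, and averaging both moved the ratios over control to -0.30 for PKA-DN and -0.77 for PKA-CA. The ratio between the PKA arrays, 0.33, turned to -0.46 with averaging, so the order of these arrays rests on which probe set is used. Cpr51A (CG10112, arm 2R) had 94.8 in PKA-DN, 111 in PKA-CA and 147 in control heads, with ratios over control of -0.63 and -0.41. The first of these was -0.41 with 64 added to each signal.

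The other 8 genes detected on all 3 arrays were under 1.5-fold in all 3 comparisons. They were Cpr65Au, Cpr67B, Cpr49Ae, Cpr73D, Cpr47Ee, Cpr62Bb, Cpr97Eb and Cpr76Bd. Cpr67B had signals of 1785 in PKA-DN, 2114 in PKA-CA and 1814 in control heads, and log2 ratios over control of -0.02 and 0.22. Cpr49Ae had 1599 in PKA-DN, 1749 in PKA-CA and 1649.5 in control heads, and ratios of -0.05 and 0.08. These 2 probe sets were thus bright and nearly level across the genotypes. Cpr73D had 495 in PKA-DN, 428 in PKA-CA and 499.9 in control heads (-0.01 and -0.23), and Cpr62Bb 322 in PKA-DN, 357 in PKA-CA and 319.9 in control heads (0.01 and 0.16). Cpr97Eb had ratios of 0.31 and 0.04, and Cpr76Bd of -0.24 and -0.35.

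**Figure D3:**
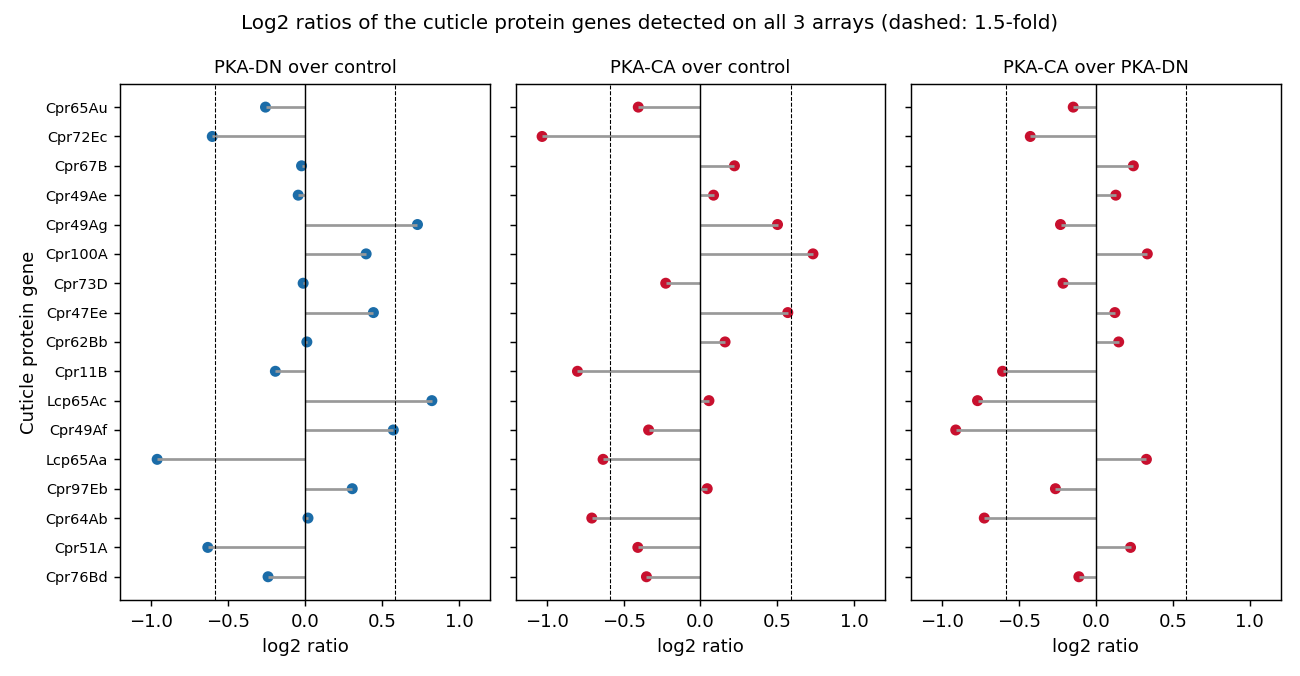
Log2 ratios (x axis) of the 17 cuticle protein genes detected on all 3 arrays (y axis, brightest at the top) for each of the 3 pairs of arrays named in the panels, 1 array per group, with dashed lines at 1.5-fold. Cpr72Ec lies at -0.60 in PKA-DN and -1.03 in PKA-CA over control, and no gene lies past 1.5-fold on the higher side in PKA-CA over PKA-DN.

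Counted over the 17 detected genes, PKA-DN heads had 2 genes 1.5-fold or more higher than control heads and 3 lower, where 2.11% of the 7458 detected genes were higher and 2.08% lower. PKA-CA heads had 1 gene higher and 4 lower than control heads, where 2.12% of all detected genes were higher and 2.8% lower. In PKA-CA over PKA-DN, 0 genes were higher and 4 were lower, with 2.53% and 2.87% of all detected genes. At 2-fold the only entry was Cpr72Ec in PKA-CA over control, where 0.416% of all detected genes were lower and 0.657% differed either way. No member differed 2-fold in PKA-DN over control (0.724% of all detected genes) or between the PKA arrays (0.912%). In either direction, 5 of 17 (29.4%) passed 1.5-fold in PKA-DN over control, against 4.18% of all detected genes. The same was true of 5 of 17 in PKA-CA over control, against 4.92%, and of 4 of 17 (23.5%) in PKA-CA over PKA-DN, against 5.4%.

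Dim genes differ more between arrays, so the counts were also read by signal. With a mean signal under 200, 2 of 6 cuticle protein genes passed 1.5-fold either way in each comparison, against 10.7% of 1021 genes in PKA-DN over control, 11.9% in PKA-CA over control and 11.9% between the PKA arrays. Between 200 and 1000, the counts were 1 of 6 in PKA-DN over control (3.58% of 3911 genes), 2 of 6 in PKA-CA over control (4.86%) and 2 of 6 between the PKA arrays (4.86%). Over 1000, they were 2 of 5 in PKA-DN over control (2.49% of 2526 genes), 1 of 5 in PKA-CA over control (2.22%) and 0 of 5 between the PKA arrays (3.64%). The shares of cuticle protein genes rest on 6 genes or fewer in each signal range.

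The size of the ratios, without their sign, was also larger than over all genes. The median absolute log2 ratio of the 17 genes was 0.31 in PKA-DN over control, 0.40 in PKA-CA over control and 0.24 between the PKA arrays, where all 7458 detected genes had 0.14, 0.16 and 0.16. These values are not matched for signal. With a mean signal under 200, 6 members had 0.44, 0.38 and 0.30 in the same comparisons, against 0.22, 0.23 and 0.25 over all genes. Between 200 and 1000, 6 members had 0.29, 0.40 and 0.27, against 0.15, 0.16 and 0.16. Over 1000, 5 members had 0.26, 0.40 and 0.23, against 0.12, 0.14 and 0.14. The signed medians of the 17 genes were at or below 0, with genes on both sides. In PKA-DN over control the median was -0.01, with 8 genes higher and 9 lower, and it turned to 0.01 with the arrays centred or cyclic loess and to 0.02 with quantile normalization. In PKA-CA over control it was -0.23, with 8 higher and 9 lower, but it was 0.08 over the 11 genes above 2 times the highest negative control. In PKA-CA over PKA-DN it was -0.15, with 7 higher and 10 lower, and it stayed below 0 under each of the scalings, limits and other settings tried, from -0.21 to -0.01. All detected genes had medians of -0.01, -0.01 and -0.003 in the same comparisons.

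**Figure D4:**
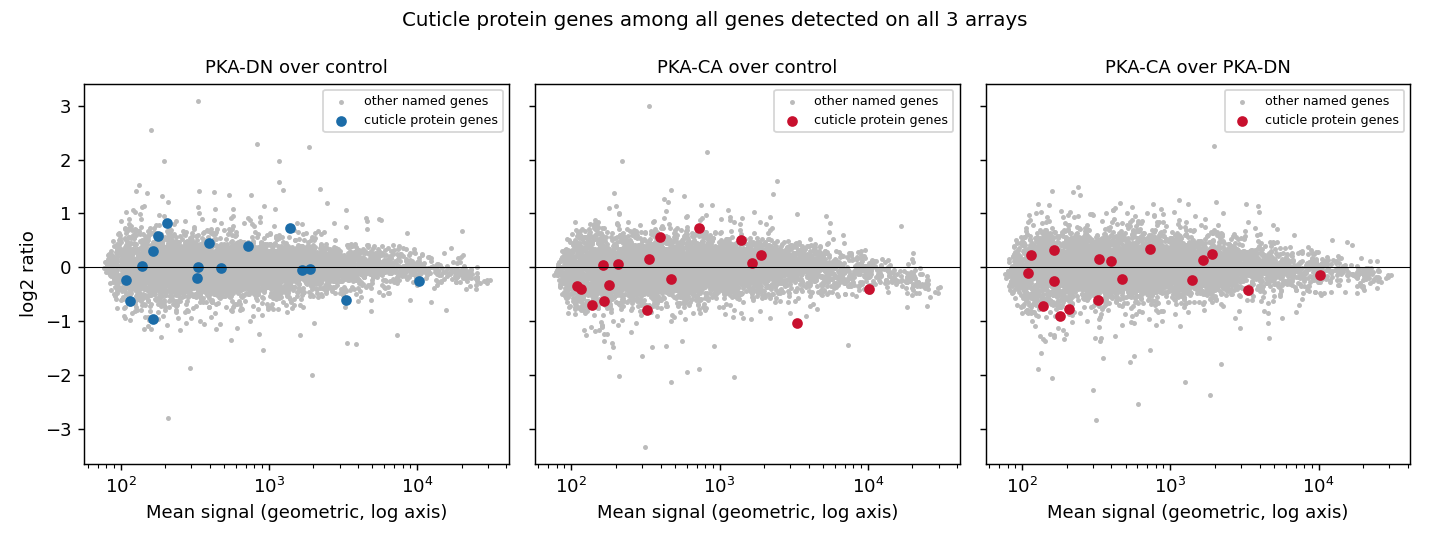
Log2 ratio (y axis) against the geometric mean signal of the 3 arrays (x axis, log scale) for the 17 cuticle protein genes (coloured) and all other named genes detected on all 3 arrays (grey), for PKA-CA over PKA-DN and for each PKA array over control. The ratios of the cuticle protein genes run from -0.96 to 0.82 in PKA-DN over control, from -1.03 to 0.73 in PKA-CA over control and from -0.91 to 0.33 between the PKA arrays, inside the extremes of the grey points.

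In the run of 3 detected neighbours in band 49A, the log2 ratios in PKA-DN over control were -0.05 for Cpr49Ae, 0.57 for Cpr49Af and 0.73 for Cpr49Ag. In PKA-CA over control they were 0.08, -0.34 and 0.50. Cpr49Af and Cpr49Ag were thus both higher in PKA-DN than in control heads, and lay on opposite sides of 0 in PKA-CA heads. In band 65A, Lcp65Ac and Lcp65Aa, which are not direct neighbours, had ratios of 0.82 and -0.96 in PKA-DN over control.

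For the 10 genes detected on some arrays, a comparison with an array below the limit gives only a bound on the fold. The widest bound was that of Cpr62Bc, with 115 in PKA-DN, 77.9 in PKA-CA and 75.2 in control heads, at least 1.49-fold higher in PKA-DN than in control heads. Ccp84Ae, the single Ccp84A gene above the limit on any array, had 91.8 in PKA-DN, 102 in PKA-CA and 47.1 in control heads, at least 1.33-fold higher in PKA-CA than in control heads. Cpr67Fb had 80.9 in PKA-DN, 89.5 in PKA-CA and 48.7 in control heads, at least 1.16-fold higher in PKA-CA than in control heads. Cpr97Ea had 67.8 in PKA-DN, 23.7 in PKA-CA and 89.6 in control heads, where it was detected, and was at least 1.26-fold lower in PKA-CA heads. Cpr66Cb was detected in PKA-DN and control heads at 95.4 and 85.7 (log2 ratio 0.15), and had 61.9 in PKA-CA heads. Cpr47Ef was detected in PKA-CA and control heads at 71.5 and 88.0 (-0.30), and had 60.8 in PKA-DN heads. Between the PKA arrays, where both signals were detected, the ratio was -0.56 for Cpr62Bc, 0.15 for Ccp84Ae and 0.14 for Cpr67Fb. Cpr47Eb (80.3), Cpr76Bc (78.8) and Cpr30F (81.2) passed the limit in PKA-DN heads only, and Cpr78Ca (75.1) in PKA-CA heads only. None of these bounds or ratios reaches 1.5-fold.

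Of the genes detected on no array, the 5 with the highest mean log2 signal are given here. Cpr60D had 68.7 in PKA-DN, 67.7 in PKA-CA and 52.0 in control heads, and Cpr5C had 51.8, 50.2 and 73.0 on the same arrays. Cpr47Eg had 52.5, 53.8 and 51.3, Cpr72Eb 63.3, 45.9 and 44.7, and Cpr78E 39.9, 50.3 and 64.2 in PKA-DN, PKA-CA and control heads. Among the genes detected on all 3 arrays, Cpr76Bd had the lowest mean log2 signal, with 106 in PKA-DN, 98.7 in PKA-CA and 126 in control heads, and Cpr51A is given above. Gene length differed between the classes: the genes detected on all 3 arrays had a median length of 1427 bp in the RefSeq table, introns included, with a range of 500 to 18590 bp. The undetected ones had 871 bp, from 450 to 17888 bp. A role of length in the detection was not tested.

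Other genes of the cuticle gave context, from lists chosen with earlier results of these data known. A list of other structural cuticle proteins had 49 measured members, among them the Tweedle, Vajk and obstructor families. On all 3 arrays 11 members were detected, against 62.2% of all named genes. Of the 11 detected members, 1 was 1.5-fold or more higher in PKA-DN than in control heads, against 2.11% of all detected genes. It was Edg91, an ecdysone-dependent cuticle gene, with 337 in PKA-DN, 149.9 in PKA-CA and 134 in control heads (log2 ratios over control 1.33 and 0.16). In PKA-CA over control 1 was lower, Vajk4 at -0.64, against 2.8% of all detected genes. In PKA-CA over PKA-DN Vajk3 was higher at 0.88, and Edg91 and Vajk4 were lower at -1.17 and -0.76. The PKA-DN signal of Vajk3 was 81.9, near the limit of 77.8. Over all detected genes 2.53% were higher and 2.87% lower in that comparison. Acp65Aa, named for the adult cuticle, had 109.9 in PKA-DN, 94.8 in PKA-CA and 81.1 in control heads. The list medians were 0.17 in PKA-DN and 0.15 in PKA-CA over control, and -0.22 between the PKA arrays.

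Of 31 measured members of the chitin synthesis and turnover list 18 were detected, against 62.2% of all named genes. Medians of the 18 were -0.05 in PKA-DN over control, -0.14 in PKA-CA over control and -0.10 between the PKA arrays. The chitin deacetylase genes vermiform (verm) and serpentine (serp) were the 2 members 1.5-fold or more higher in PKA-DN heads and 1 member was lower, where 4.18% of all detected genes passed that fold either way. In PKA-CA heads 13 members lay below control heads and 5 above, where 3815 of all 7458 detected genes lay below and 3643 above. Only verm passed 1.5-fold there, on the higher side, where 2.12% of all detected genes did. Signals of verm were 239.5 in PKA-DN, 156 in PKA-CA and 92.2 in control heads, the last near the limit of 77.0. Its log2 ratios over control were 1.38 and 0.76. In PKA-CA over PKA-DN it had -0.62, where 2.87% of all detected genes were 1.5-fold or more lower. Ratios of serp over control were 0.64 and 0.25. The list member knk had 168 in PKA-DN, 109 in PKA-CA and 69.6 in control heads. Its control signal was under the limit, so knk is not in these counts. Hexo2, a hexosaminidase gene, was the lower one in PKA-DN heads at -0.69. The chitin synthase gene kkv was not detected on any array.

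In the tanning and pigmentation list, 14 of 25 measured members were detected, against 62.2% of all named genes. Medians of the 14 were 0.07 in PKA-DN over control, 0.01 in PKA-CA over control and 0.14 between the PKA arrays. The laccase gene straw (stw), whose enzyme cross-links cuticle, had 585 in PKA-DN, 853 in PKA-CA and 442 in control heads, with ratios over control of 0.41 and 0.95. The tyrosine hydroxylase gene pale (ple) had ratios of 0.15 and 0.61, and yellow-b of 0.67 and 0.29. Lower in PKA-DN heads were ebony (e) at -1.15 and yellow-f at -0.84, and e was lower in PKA-CA heads at -1.46. Mco1, a multicopper oxidase gene, had -0.69 in PKA-CA over PKA-DN. Some of these ratios rest on signals near the limit. The lowest signals were 85.2 for ple in control heads, 89.8 for yellow-f in PKA-DN heads and 93.8 for Mco1 in PKA-CA heads. In either direction 4.18% of all detected genes passed 1.5-fold in PKA-DN over control, 4.92% in PKA-CA over control and 5.4% between the PKA arrays. Of 22 measured regulators of moulting and cuticle 18 were detected, again beside 62.2% of all named genes. Medians of the 18 were -0.12, -0.01 and 0.18 in the same 3 comparisons. There were 2 that were 1.5-fold or more lower in PKA-DN than in control heads, Hr3 at -0.69 and E23 at -0.63, against 2.08% of all detected genes. Hr3 (0.85), Eip93F (0.69) and E23 (0.64) were higher in PKA-CA than in PKA-DN heads, where 2.53% of all detected genes were 1.5-fold or more higher.

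The tissue was checked with marker genes, since in whole heads fewer cells of a type and less RNA per cell cannot be told apart. Sums cover all measured markers and medians those detected on all 3 arrays. The 5 genes taken as epidermal markers, grh, Egfr, shg, crb and vvl, were all detected. Their summed signal was 3582 in PKA-DN, 3629.9 in PKA-CA and 3915 in control heads, with median log2 ratios over control of -0.20 and -0.16. Whether these genes are limited to the epidermis in heads was not tested. Of 11 oenocyte names 8 were measured and 6 detected, with sums of 6184, 6615 and 7957 on the same arrays and medians of -0.31 and -0.16. Among them Cyp4g1, the P450 gene that marks oenocytes, had 541 in PKA-DN, 76.0 in PKA-CA and 766 in control heads, and FASN3 was not detected on any array. The other detected oenocyte markers did not share the low PKA-CA value of Cyp4g1, a log2 ratio over control of -3.33. In that comparison KFase had -0.41, spidey -0.18, Elovl7 -0.15, bond -0.10 and app 0.11. Elovl7 was low on the PKA-DN array instead, with 506 in PKA-DN, 1071 in PKA-CA and 1190 in control heads. Its ratio in PKA-DN over control was -1.23, beside -0.50 for Cyp4g1, -0.34 for KFase, -0.28 for spidey, -0.25 for app and -0.10 for bond. Muscle markers (5 of 6 measured, all 5 detected) had sums of 9324, 10007 and 5740.4 and medians of 0.64 and 0.80. In PKA-DN over control Mlp60A had 1.06, Act87E 0.76, Prm 0.64, up 0.27 and TpnC41C -0.79. Blood cell markers (8 of 8) had sums of 4428, 5422 and 7295 and medians of -0.58 and -0.16. In PKA-CA over control PPO1 and PPO2 had -1.36 and -1.46. The others were eater (-0.45), NimC1 (-0.22), Pxn (-0.10), Hml (-0.08), srp (0.15) and lz (0.26). On the PKA-DN array more of the list was low. The ratios over control there were -1.53 for PPO2, -1.35 for PPO1, -1.15 for eater and -0.77 for NimC1. Hml had -0.39, Pxn -0.34, srp -0.24 and lz 0.10. Fat body markers (7 of 8) had sums of 161400, 134628 and 170509 with -0.21 and -0.43. In PKA-DN over control Lsp2, fit and Lsd-1 had 0.68, 0.19 and 0.01, and apolpp, Yp1, Yp2 and Yp3 had -0.21, -0.29, -0.26 and -0.33. Glial markers (6 of 6) had sums of 18970.0, 17248 and 20463.5 with -0.11 and -0.20, and neuronal markers (4 of 5) 5058, 6287 and 6054.5 with -0.43 and 0.04. Among the glial genes, ratios in PKA-DN and PKA-CA over control were -1.15 and -1.46 for e, and -0.69 and -0.74 for alrm. They were -0.11 and -0.32 for Gs2, -0.11 and 0.05 for repo, 0.08 and 0.20 for moody, and 0.16 and -0.07 for nrv2. Of the neuronal genes, elav had -0.56, Rim -0.54, brp -0.33 and nSyb -0.02 in PKA-DN over control. Of 4 tracheal names 3 were measured and 1 detected, with sums of 2439, 2636 and 2306; the 1 detected gene, pio, had ratios of 0.09 and 0.21, btl was detected on 2 arrays, and dyl on none. The 3'/5' signal ratio of GAPDH, a measure of RNA integrity, was 2.05, 2.0 and 1.70. The part of these differences in the ratios of the cuticle protein genes was not tested.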

How the data were processed

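Total RNA from heads was labelled with biotin per the labels' protocols and hybridised to Affymetrix arrays of 18952 probe sets, 1 array for each of 3 groups. The authors deposited linear intensity values, with 1 signal for each probe set. Per the submitters' processing notes they used MAS5; for version and settings, the sources used here give nothing. With 2% of probe sets trimmed from each end, the mean signal was 500 on each of the arrays, which therefore share a scale, and values were used as deposited on the log2 scale with no constant added. Per the platform's gene table, 13646 probe sets had a single symbol. Negative controls were 99 of the 100 Drosophila control probe sets, after 1 with a signal above 1000 was left out. Scripts used Python 3.11.15 with pandas 2.3.3, and limma 3.58.1 in R 4.3.3 for other scalings, and were tested on simulated data.

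Groups were taken from the sample titles. With 1 array per group there is no test, the number of arrays limits the precision, and 1.5-fold and 2-fold differences are counted beside the percent of all detected genes past the same fold. Named with values were all members detected on all 3 arrays, those detected on some arrays and the 5 undetected ones with the highest mean log2 signal. In the cuticle, chitin, tanning and moult lists, detected genes past 1.5-fold and some others were named. Marker genes are given as sums and medians, with single values for some of the lists and not in every comparison. The members and lists were chosen with earlier results of these data known. Alternatives were other scalings, an added constant, averaged probe sets and other detection limits. No sequences are shown, and coordinates are not given.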

Additional observations from a re-analysis of the deposited data

How the results depend on the processing

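No paired analysis was possible because each group has 1 array. A median was taken as moved when it changed by more than 0.1 on the log2 scale or crossed 0. A count was taken as moved when it changed by more than 1.5 times or to or from 0. The medians in PKA-DN over control given in this section crossed 0 from -0.0132, each with a change of less than 0.1. Centring the arrays shifted the median ratio of all detected genes in PKA-CA over control by 0.11. It gave the cuticle protein genes medians of 0.0098 in PKA-DN over control and -0.11 in PKA-CA over control, 3 genes 1.5-fold higher in PKA-CA over control, and 0 genes 2-fold lower there. With quantile normalization the PKA-DN median was 0.0235 and 2 genes were 1.5-fold higher in PKA-CA over control, and with cyclic loess the PKA-DN median was 0.00874. Adding 64 left 2 genes 1.5-fold lower in PKA-CA over control and 2 in PKA-CA over PKA-DN.

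A limit at the 95th percentile of the negative controls detected 27 genes, as many as passed the highest negative control on any array. It gave a PKA-DN median of 0.0329, 4 genes 1.5-fold higher in PKA-DN over control and 7 lower in PKA-CA over PKA-DN. A limit of 2 times the highest negative control detected 11 genes, with 1 gene 1.5-fold lower in PKA-DN over control, 2 in PKA-CA over control and 2 in PKA-CA over PKA-DN, and a PKA-CA median of 0.0848. The upper 50% of named genes by signal gave 1 gene higher and 1 lower in PKA-DN over control, 2 lower in PKA-CA over control, 1 lower in PKA-CA over PKA-DN, and medians of 0.12 in PKA-CA over control and -0.0111 in PKA-CA over PKA-DN. With no limit, 19 genes were 1.5-fold higher and 20 lower in PKA-DN over control, 17 and 18 in PKA-CA over control, and 14 and 20 in PKA-CA over PKA-DN. At 2-fold these counts were 8 and 13, 11 and 12, and 9 and 7, and the medians were 0.0683 in PKA-DN and -0.11 in PKA-CA over control. Fewer or more genes enter under other limits, and the cause of the other changes was not tested.

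Of 14 ratios past 1.5-fold, 11, 13, 13, 9 and 13 stayed past it with centring, quantile normalization, cyclic loess, 64 added and averaged probe sets. Averaging can change only Lcp65Aa, the 1 detected gene with 2 probe sets. Genes near the negative controls limit all of these counts.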
